A study of Mus musculus with 8 samples.

Results

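The subject of this report is the genes of the TAL1, LMO and GATA transcription factor complex in cells sorted from the neonatal mouse cochlea. They are *Tal1* and its relative *Lyl1*, the LIM-only genes *Lmo1*, *Lmo2* and *Lmo4*, the factors *Gata1*, *Gata2* and *Gata3*, and the adaptors *Ldb1* and *Ldb2*. They make 10 of the 36536 genes with counts, each found by its gene symbol in the NCBIM37 (mm9) annotation. The set was selected on the measured values of *Tal1*, whose counts were high in P1 GFP+ cells alone and low at P6, so the values of *Tal1* below are a description and carry no test. The other members were taken for their known ties to TAL1 or to one another, and were tested in fits over all genes.

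Cells came from freshly dissected, untreated cochleas at postnatal day 1 (P1) and postnatal day 6 (P6). All mice carried the LFng-GFP BAC transgene (B6;FVB-Tg(Lfng-EGFP)HM340Gsat/Mmucd), in which GFP is under the control of *Lfng* sequences and marks most supporting cell types, the glia-like cells around the hair cells, but not inner pillar cells. The GFP+ samples are the brightest cells of the sort, pooled over many cochleas, and the GFP- samples are cells without GFP, a mixture of many cochlear cell types. Each of the 4 groups had 2 RNA-seq libraries, with no statement that they came from separate litters, so a p-value measures only the spread between these samples.

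TAL1 is a basic helix-loop-helix protein that pairs with an E protein and binds E-box sequences. In blood precursors it sits in a complex in which a LIM-only protein, LMO2, joins it to a GATA factor and to LDB1, an adaptor that dimerizes and brings distant DNA elements together. The complex is best known for setting up the red blood cell, mast cell and megakaryocyte programs, and *TAL1*, *LYL1*, *LMO1* and *LMO2* are oncogenes in T cell leukaemia. In the inner ear, GATA3 is needed for the sensory and neural parts of the cochlea, and loss of a copy of the human gene causes deafness.

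The libraries held 17769024 to 67695039 counts on genes. Levels are given as CPM, the counts scaled to 1000000 counts of the effective library size, that is, the gene total times the TMM scaling factor. Of the 7 supporting cell markers examined, all 7 were higher in GFP+ cells at both ages, and their summed level was 5760 to 8665 CPM in GFP+ libraries against 208 to 341 CPM in GFP- libraries. Hair cell markers were also higher in GFP+ cells, 5 of 6 at P1 and 4 of 6 at P6, with sums of 427 to 756 CPM against 358 to 413 CPM. The P1 GFP- libraries differed in the summed neuron markers, at 124 and 420 CPM in replicates 1 and 2. P6 GFP+ replicate 2 stood apart from replicate 1. Over 751 genes that were more than 16-fold higher in P1 GFP- than in P1 GFP+ cells, its median was 1.56 higher on the log2 scale, whereas the P1 GFP+ replicates differed by a median of -0.04. Most tested differences that rest on the P6 GFP+ libraries are therefore given with and without it. The gene lists were refitted only without replicate 2. Leaving out replicate 1 instead also brought more genes past the threshold, so passing in such a fit is not particular to leaving out replicate 2. Fits without it have 1 P6 GFP+ library, which is assumed to vary like the other group, and they called 40.5% of all genes between the P6 fractions and 43.2% between the ages in GFP+ cells, so their calls are read against those shares.

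*Tal1* (chr4:114729031-114744360, plus strand, NCBIM37) was abundant in 1 of the 4 groups. Its level was 91.8 and 112 CPM in the P1 GFP+ libraries, from 4253 and 2884 counts. It was 1.52 and 1.73 CPM in P1 GFP- cells, 1.98 and 3.18 CPM in P6 GFP+ cells, and 2.31 and 2.67 CPM in P6 GFP- cells. Both P1 GFP+ libraries thus stood far above the other 6, and at P6 the GFP- values lay between those of the GFP+ libraries. The P1 GFP+ mean of 102 ± 13.9 CPM (SD, n = 2) was 62.4-fold the P1 GFP- mean and 39.4-fold the P6 GFP+ mean. At P6 the GFP+ mean was 1.04-fold the GFP- mean. On the log2 scale the fitted change of GFP+ cells from P1 to P6 was -5.26, and -5.68 without P6 GFP+ replicate 2. In bulk samples, fewer cells of a type and less RNA per cell cannot be told apart.

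**Figure D1:**
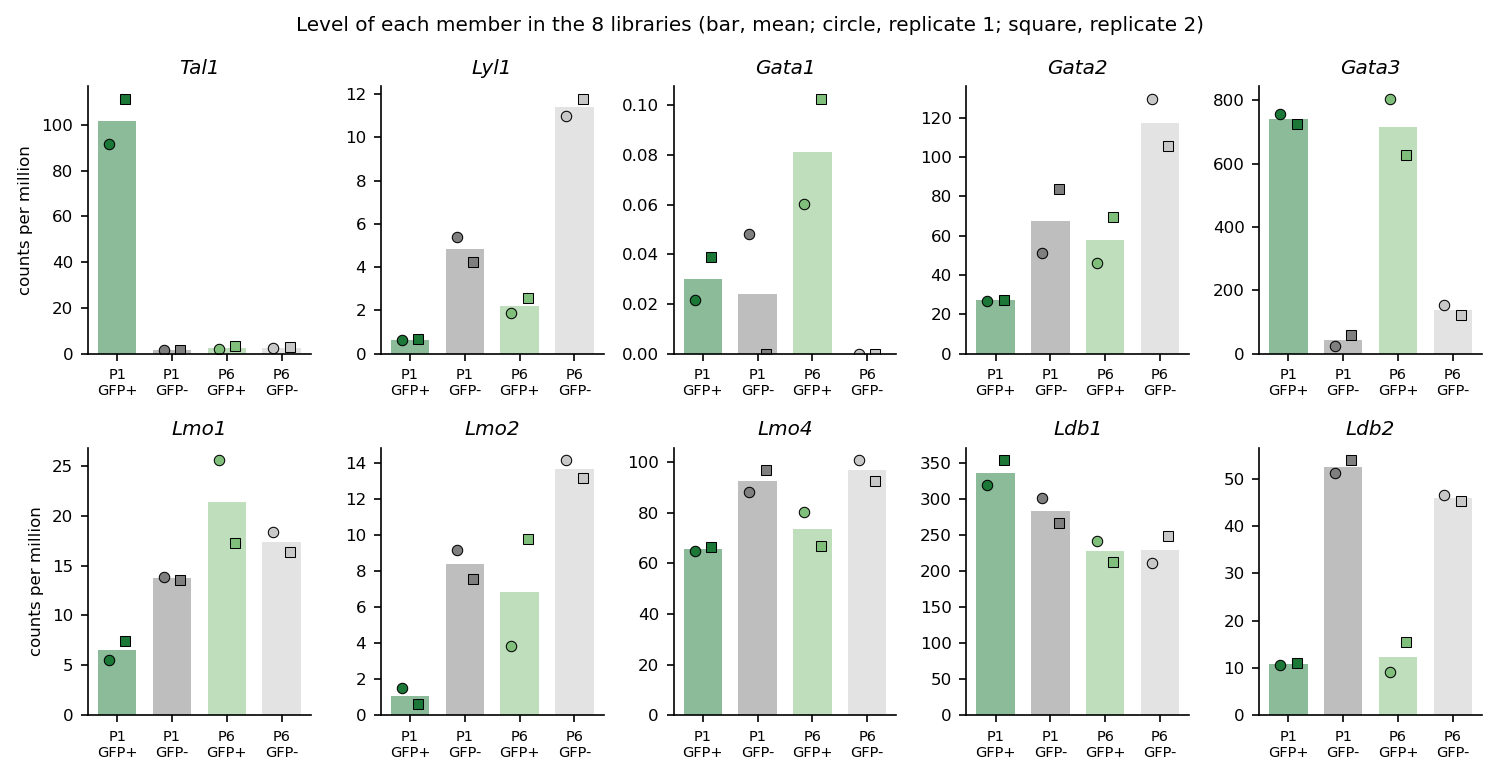
Level of each of the 10 genes in the 8 libraries, in CPM on a linear axis that starts at 0 in each panel. Bars are group means and symbols are single libraries (circle, replicate 1, and square, replicate 2). *Tal1* stands at 91.8 and 112 CPM in P1 GFP+ cells and at 3.18 CPM or less elsewhere, while *Gata3* is high in GFP+ cells of both ages.

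The windows of 250 bases before the annotated 5′ end are shown for 4 genes, because they set *Tal1* and its neighbour *Pdzk1ip1* beside *Lmo2*, its partner in blood, and *Gata3*, the most abundant GATA gene in GFP+ cells. The sequences were read 5′ to 3′ on the gene's strand from the NCBIM37 genome, and no other annotated gene lies in them. Capitals mark matches to GATA and to the E-box CANNTG, both searched on both strands, so TATC is a GATA match on the opposite strand. They stand at chr4:114728781-114729030 (*Tal1*, plus strand), chr4:114761063-114761312 (*Pdzk1ip1*, plus strand), chr2:103797893-103798142 (*Lmo2*, plus strand) and chr2:9811662-9811911 (*Gata3*, minus strand).
Tal1: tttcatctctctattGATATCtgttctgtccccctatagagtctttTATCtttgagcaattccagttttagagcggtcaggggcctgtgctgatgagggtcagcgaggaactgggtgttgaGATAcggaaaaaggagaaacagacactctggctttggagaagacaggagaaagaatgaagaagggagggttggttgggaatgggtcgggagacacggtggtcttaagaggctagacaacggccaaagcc
Pdzk1ip1: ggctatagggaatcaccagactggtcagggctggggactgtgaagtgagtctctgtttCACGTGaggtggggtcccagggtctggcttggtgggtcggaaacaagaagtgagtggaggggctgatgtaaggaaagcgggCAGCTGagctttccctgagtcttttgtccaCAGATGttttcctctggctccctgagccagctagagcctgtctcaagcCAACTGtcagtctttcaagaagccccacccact
Lmo2: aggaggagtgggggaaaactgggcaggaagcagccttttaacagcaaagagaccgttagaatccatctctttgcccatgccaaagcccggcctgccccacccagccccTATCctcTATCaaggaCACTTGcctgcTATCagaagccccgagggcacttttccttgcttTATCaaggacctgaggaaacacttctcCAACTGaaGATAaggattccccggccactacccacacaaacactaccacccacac
Gata3: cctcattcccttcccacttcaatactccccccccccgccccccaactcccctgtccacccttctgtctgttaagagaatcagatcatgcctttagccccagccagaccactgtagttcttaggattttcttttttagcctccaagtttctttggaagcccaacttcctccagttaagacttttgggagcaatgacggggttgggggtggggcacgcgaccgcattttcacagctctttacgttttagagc

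The *Tal1* window held 4 GATA matches, of which the first 2 overlap in the letters GATATC, and no E-box. At least 4 GATA matches were found in 3.53% of the same windows of 22362 protein-coding genes. Its last match, 129 bases before the gene, ends 1 match to CTGNNNNNNNNGATA, the composite spacing described for TAL1 with GATA factors in blood cells. That composite was in 1.63% of all windows, and in 3.63% when a spacer of 7 bases was also allowed. The *Lmo2* window held 5 GATA matches (at least 5 in 1.3% of windows) and 2 E-boxes. The *Pdzk1ip1* window held no GATA match and 4 E-boxes, a number reached or passed in 3.15% of windows. The *Gata3* window held neither motif, and across the members 4 of 10 windows held GATA and 5 of 10 an E-box, against 51.1% and 63.6% of all windows. A match is a description of letters and says nothing of binding.

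On chromosome 4, the gene downstream of *Tal1* was also at its highest in P1 GFP+ cells. *Pdzk1ip1*, which encodes a small membrane protein that interacts with PDZ domain proteins, begins 16952 bases after the end of *Tal1*. Its level was 124 and 164 CPM in P1 GFP+ cells, 0.918 and 1.37 CPM in P1 GFP- cells, 12.02 and 8.28 CPM in P6 GFP+ cells, and 0.657 and 0.556 CPM in P6 GFP- cells. No replicates of different groups overlapped. It was higher in GFP+ than in GFP- cells at P1 by 6.95 ± 0.24 (log2 ± SE, p-adj = 1.36e-05, edgeR) and at P6 by 4.08 ± 0.34 (p-adj = 0.00151), and it fell by 3.85 ± 0.25 in GFP+ cells from P1 to P6 (p-adj = 0.00273). Without P6 GFP+ replicate 2 that change was -3.59. Its GFP+ excess was larger at P1 than at P6 by 2.89 ± 0.39 (p-adj = 0.0060, edgeR interaction test), and by 2.63 without P6 GFP+ replicate 2. Unlike *Tal1*, it thus remained higher in GFP+ cells at P6, and without P6 GFP+ replicate 2 the P6 difference was 4.33 on the log2 scale. The P6 difference missed the threshold without P6 GFP- replicate 1 (4.23, p-adj = 0.0129) or replicate 2 (3.98, p-adj = 0.0250), and the interaction missed it without any 1 of the P1 libraries or the P6 GFP- libraries (p-adj from 0.0139 to 0.0493).

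Of the other neighbours, *Stil*, a centriole assembly gene that ends 13229 bases before *Tal1*, was lower in GFP+ cells at P1 by a log2 difference of -1.42 ± 0.26 (p-adj = 0.00504). It had 3.71 and 4.06 CPM in P1 GFP+ cells, 12.7 and 8.32 CPM in P1 GFP- cells, 0.601 and 1.71 CPM in P6 GFP+ cells, and 2.86 and 2.96 CPM in P6 GFP- cells, and it fell by 1.88 ± 0.26 in GFP- cells from P1 to P6 (p-adj = 0.00464). Neither *Stil* difference passed without a library of P1 GFP+ (p-adj = 0.0421 and 0.0314) or of P6 GFP- cells (0.0478 and 0.0385), respectively. *Cmpk1*, a nucleotide kinase gene, lay between 55.3 and 76.9 CPM in all 8 libraries, and *Cyp4x1*, a cytochrome P450 gene, between 1.17 and 3.86 CPM. *Foxe3* was at or under 0.0355 CPM and *Cyp4a12a* had no counts. The high level of *Tal1* in P1 GFP+ cells was therefore shared, among these 6 neighbours, by *Pdzk1ip1*.

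**Figure D2:**
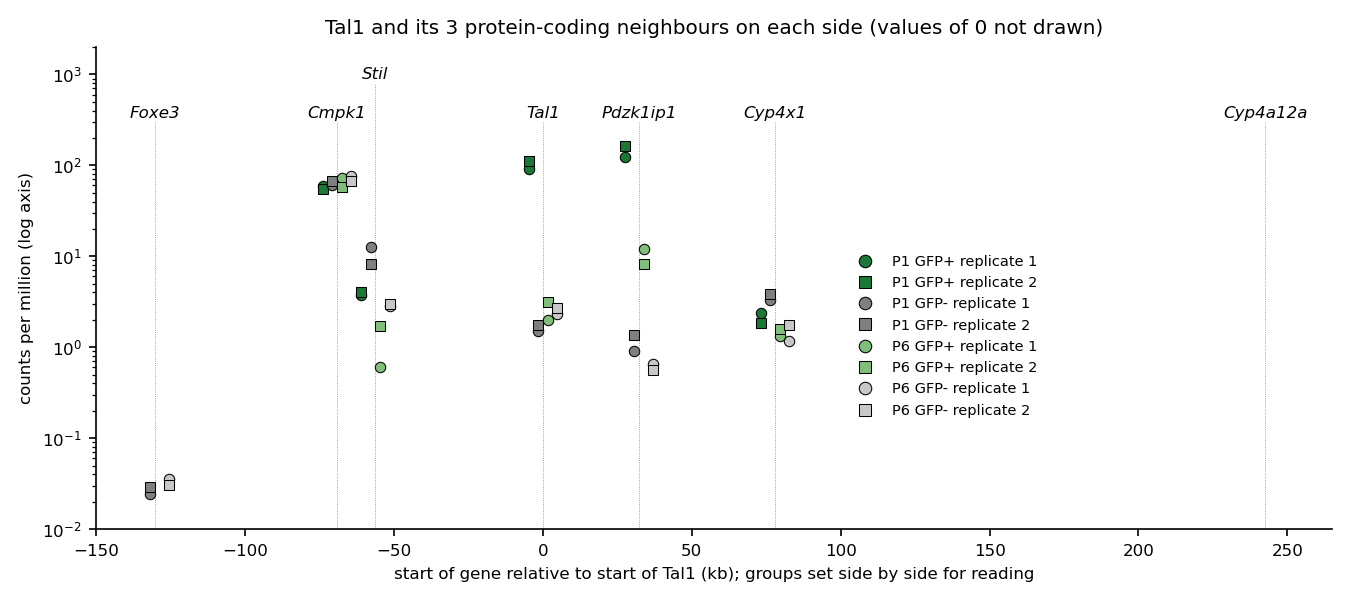
Levels of *Tal1* and of the 3 nearest annotated protein-coding genes on each side, in CPM on a log axis, against the start of each gene relative to that of *Tal1* in kilobases. Each symbol is 1 library, groups are set side by side, and values of 0 are not drawn. *Tal1* and *Pdzk1ip1* are both near or above 91.8 CPM in P1 GFP+ cells, while at P6 the GFP+ libraries hold *Pdzk1ip1* at 8.28 CPM or more and *Tal1* is at 3.18 CPM or less.

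The 5 genes whose levels followed *Tal1* most closely over the 8 libraries were *Angpt1*, *Sun1*, *Mphosph8*, *Hectd2* and *Vangl2*, with Pearson's r of 0.99 for each on log2 CPM among 12074 genes compared. These correlations are descriptions, since 2 libraries carry the high values and genes are not independent. They rank the shape of a pattern and not the size of the difference. *Angpt1*, which encodes the vascular growth factor angiopoietin-1, had 148 and 146 CPM in P1 GFP+ cells and 13.0 to 18.1 CPM in the other 6 libraries. *Vangl2*, a core planar cell polarity gene, had 239 and 243 CPM in P1 GFP+ cells and 105 to 121 CPM elsewhere. *Hectd2* had 65.8 and 64.5 CPM in P1 GFP+ cells and 13.0 to 19.2 CPM elsewhere. Differences were small for *Mphosph8* (64.4 and 63.6 CPM, against 40.6 to 45.7 CPM elsewhere) and *Sun1* (156 and 159 CPM, against 123 to 131 CPM). *Pdzk1ip1* ranked 354th by the same measure (r = 0.88), although its P1 GFP+ mean was 126-fold its P1 GFP- mean.

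*Lyl1* encodes the closest relative of TAL1, with a nearly identical helix-loop-helix domain. Its level was 0.604 and 0.657 CPM in P1 GFP+ cells, 5.41 and 4.24 CPM in P1 GFP- cells, 1.86 and 2.56 CPM in P6 GFP+ cells, and 10.98 and 11.8 CPM in P6 GFP- cells. It was thus lowest in the libraries in which *Tal1* was highest, and GFP+ and GFP- libraries did not overlap at either age. The difference of GFP+ from GFP- cells was -2.92 ± 0.28 on the log2 scale at P1 (p-adj = 4.03e-04) and -2.32 ± 0.29 at P6 (p-adj = 0.00445), the latter -2.59 without P6 GFP+ replicate 2. From P1 to P6 it rose by 1.21 ± 0.21 in GFP- cells (p-adj = 0.00921). In GFP+ cells the change was 1.82 ± 0.36 and did not pass the threshold of 0.01 (p-adj = 0.027). It was 1.56 without P6 GFP+ replicate 2 and 2.03 without P6 GFP+ replicate 1. The rise in GFP- cells missed the threshold without either P6 GFP- library (p-adj = 0.0667 and 0.0706). Per kilobase of exon, the scale on which different genes can be compared, *Tal1* was 66.1-fold above *Lyl1* in P1 GFP+ cells (SD 5.16, n = 2). *Lyl1* was 2.12-fold above *Tal1* in P6 GFP+ cells (2.29 and 1.96 in replicates 1 and 2), 7.30-fold in P1 GFP- cells and 11.2-fold in P6 GFP- cells.

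*Gata3* (chr2:9778705-9811661, minus strand) encodes the GATA factor of T cells and of the developing ear, and it was the member with the highest level per kilobase in GFP+ cells of both ages. It had 755 and 725 CPM in P1 GFP+ cells, 23.0 and 59.3 CPM in P1 GFP- cells, 805 and 627 CPM in P6 GFP+ cells, and 154 and 120.3 CPM in P6 GFP- cells. GFP+ libraries stood above GFP- libraries at both ages, and the GFP+ libraries of both ages overlapped. *Gata3* was higher in GFP+ cells by 4.18 ± 0.44 at P1 (log2 ± SE, p-adj = 5.82e-04) and by 2.41 ± 0.24 at P6 (p-adj = 0.00220), the latter being 2.58 without P6 GFP+ replicate 2. The size of the P1 difference depended on the P1 GFP- library left out (3.63 without replicate 1 and 5.01 without replicate 2). In GFP- cells the mean went from 41.2 ± 25.7 CPM at P1 to 137 ± 23.8 CPM at P6 (SD, n = 2), a log2 change of 1.70 that did not pass the threshold (p-adj = 0.0257). Within GFP+ cells the change with age was -0.05 ± 0.18 (p-adj = 0.845), and 0.12 without P6 GFP+ replicate 2. Exons of *Gata3* share 155 of 3978 bases with the antisense gene *Gm13256* and 77 with *9230102O04Rik*, and the library kit does not mark strand, so reads in those bases cannot be told apart.

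*Gata2*, the GATA factor of blood stem cells and mast cells, had the opposite order. It stood at 26.7 and 27.3 CPM in P1 GFP+ cells, 51.4 and 84.0 CPM in P1 GFP- cells, 46.3 and 69.7 CPM in P6 GFP+ cells, and 129.8 and 105 CPM in P6 GFP- cells. GFP+ libraries were below GFP- libraries at each age. The log2 difference was -1.31 ± 0.22 at P1 (p-adj = 0.00397) and -0.99 ± 0.24 at P6, where it did not pass (p-adj = 0.0287). The P1 difference was -1.64 without P1 GFP- replicate 1 and -0.93 without P1 GFP- replicate 2. The P6 difference was -1.32 without P6 GFP+ replicate 2 and -0.66 without P6 GFP+ replicate 1. In GFP+ cells *Gata2* changed with age by 1.10 ± 0.22 (p-adj = 0.0284), and by 0.77 without P6 GFP+ replicate 2. Per kilobase, *Gata3* was 23.1 ± 1.03 times *Gata2* in P1 GFP+ cells and 11.1 ± 5.002 times in P6 GFP+ cells (14.7 and 7.58 in replicates 1 and 2), but 0.486 ± 0.154 times in P1 GFP- cells and 0.980 ± 0.0272 times in P6 GFP- cells (SD, n = 2). *Gata1*, the factor of red blood cells and megakaryocytes, had 3 counts or fewer in every library and 0 in both P6 GFP- libraries. Such counts are at the floor of 3 counts, so no fold is given, and it was not among the genes tested.

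*Lmo2* (chr2:103798143-103822035, plus strand), the bridge of the blood complex, followed *Lyl1* rather than *Tal1*. It had 1.49 and 0.619 CPM in P1 GFP+ cells, 9.18 and 7.59 CPM in P1 GFP- cells, 3.85 and 9.82 CPM in P6 GFP+ cells, and 14.2 and 13.2 CPM in P6 GFP- cells. Both P1 GFP+ libraries were below the other 6, and P6 GFP+ replicate 2 was above both P1 GFP- libraries. It was lower in GFP+ cells at P1 by a log2 difference of -2.90 ± 0.40 (p-adj = 0.00161). At P6 the difference was -0.95 ± 0.44 (p-adj = 0.152), and it was -1.81 without P6 GFP+ replicate 2 and -0.39 without P6 GFP+ replicate 1. In GFP+ cells the change with age was 2.66 ± 0.63 (p-adj = 0.0424). It was 1.76 without P6 GFP+ replicate 2 and 3.10 without P6 GFP+ replicate 1, so the size of both values depended on which library was left out.

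*Lmo1*, a LIM-only gene of the nervous system, had 5.55 and 7.42 CPM in P1 GFP+ cells, 13.9 and 13.6 CPM in P1 GFP- cells, 25.6 and 17.3 CPM in P6 GFP+ cells, and 18.4 and 16.4 CPM in P6 GFP- cells. Its P1 GFP+ libraries were the lowest of the 8, and the groups overlapped at P6. The log2 difference of GFP+ from GFP- cells was -1.08 ± 0.19 at P1 (p-adj = 0.00431) and 0.32 ± 0.23 at P6 (p-adj = 0.334). The P6 difference was 0.58 without P6 GFP+ replicate 2 and 0.08 without P6 GFP+ replicate 1. Its change with age in GFP+ cells was 1.72 ± 0.28 (p-adj = 0.0170), and it was 2.00 without replicate 2 and 1.43 without replicate 1. The P1 difference of the fractions minus the P6 difference was -1.39 ± 0.32 (p-adj = 0.0453), and -1.64 without P6 GFP+ replicate 2. *Lmo4*, a widely expressed LIM-only gene, had 64.9 and 66.4 CPM in P1 GFP+ cells, 88.1 and 97.0 CPM in P1 GFP- cells, 80.6 and 66.8 CPM in P6 GFP+ cells, and 100.9 and 92.8 CPM in P6 GFP- cells. It was lower in GFP+ cells at P1 by a log2 difference of -0.48 ± 0.09 (p-adj = 0.00494), the smallest called difference among the members, and was not called at P6 (-0.37, p-adj = 0.135, and -0.24 without P6 GFP+ replicate 2).

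*Ldb1* and *Ldb2* encode LIM-domain-binding adaptors, of which LDB1 is the one in the blood complex. *Ldb1* lay between 210.2 and 353 CPM in all 8 libraries and was called in none of the main edgeR fits. Its log2 difference was 0.26 ± 0.11 between the P1 fractions (p-adj = 0.0975) and 0.01 ± 0.19 between the P6 fractions (p-adj = 0.965), the latter 0.097 without P6 GFP+ replicate 2. The P1 difference was 0.33 without P1 GFP- replicate 1 and 0.16 without P1 GFP- replicate 2. In GFP+ cells it changed with age by -0.57 ± 0.14 (p-adj = 0.0463). That change was -0.48 without P6 GFP+ replicate 2. It passed in DESeq2 (-0.56, adjusted p = 0.00744) and in edgeR with no filter on low counts (-0.59, p-adj = 0.00844). *Ldb2* had 10.5 and 11.1 CPM in P1 GFP+ cells, 51.3 and 54.0 CPM in P1 GFP- cells, 9.07 and 15.5 CPM in P6 GFP+ cells, and 46.7 and 45.4 CPM in P6 GFP- cells. All 4 GFP- libraries were at least 45.4 CPM and all 4 GFP+ libraries at most 15.5 CPM. Its log2 difference of GFP+ from GFP- cells was -2.27 ± 0.10 at P1 (p-adj = 2.56e-05) and -1.87 ± 0.28 at P6 (p-adj = 0.00721, and -2.32 without P6 GFP+ replicate 2). Exons of *Ldb1* share 177 of 3583 bases with the antisense gene *Pprc1*, and those of *Lyl1* share 4 bases with *Nfix*.

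Among the 8 members tested (all but *Tal1* and *Gata1*), 1 was higher and 6 were lower in GFP+ cells at P1, where 37.3% of all 18682 genes tested were called at an adjusted p under 0.01 (16.6% higher and 20.7% lower). The replicates of the fractions did not overlap for 8 of the 8, against 79.5% of all genes. *Ldb1* did not pass. *Lmo1* (p-adj = 0.0407 and 0.0129), *Lmo4* (0.0597 and 0.0528) and *Gata2* (0.0287 and 0.0265) missed the threshold without P1 GFP+ replicate 1 and replicate 2, each left out alone, at log2 differences of -0.87 and -1.28, -0.47 and -0.48, and -1.29 and -1.31. With the further requirement of a fold change above 4, *Gata3*, *Lyl1*, *Lmo2* and *Ldb2* remained, against 17.8% of all genes. At P6, 3 members were called (*Gata3* higher, *Lyl1* and *Ldb2* lower) against 12.9% of 18294 genes (7.72% higher and 5.19% lower), and 6 were called without P6 GFP+ replicate 2, where 40.5% of all genes were called. All 3 missed the threshold without P6 GFP- replicate 1 or replicate 2 (p-adj of 0.0305 and 0.0433 for *Lyl1*, 0.0152 and 0.0314 for *Gata3*, and 0.0328 and 0.0429 for *Ldb2*), with differences of -2.35 and -2.25, 2.63 and 2.26, and -1.82 and -1.88. Of the 3 members called, 2 also had a fold change above 4, against 7.98% of all genes, and 6 of the 8 members had fractions that did not overlap, against 72.7%. The median log2 difference over the 8 members was -1.19 at P1 and -0.66 at P6, against medians of 0.01 and -0.02 over all genes tested.

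With age, edgeR called 0 of the 8 members in GFP+ cells, where 4.81% of all genes were called. By other counts, 5 of 8 had an unadjusted p under 0.05 (38.2% of all genes), DESeq2 called 4 (17.6% of all genes), and edgeR called 5 without P6 GFP+ replicate 2 (43.2% of all genes). The ages did not overlap for 6 of 8, against 69% of all genes. In GFP- cells only *Lyl1* was called, against 7.38% of all genes. There, 5 of 8 had an unadjusted p under 0.05 (34.5% of all genes), DESeq2 called 3 (16.1%), and the ages did not overlap for 7 of 8 (64.4%). The difference of the fractions changed between the ages for 0 of the 8 by edgeR's interaction test, against 1.93% of all genes, with 3 at an unadjusted p under 0.05 (21.2% of all genes) and 1 called by DESeq2 (7.48%). Without P6 GFP+ replicate 2 *Lmo1* was called, against 5.81% of all genes. The comparisons of fractions and of ages share libraries and are not independent of one another. For *Tal1* the same difference between ages was 5.87 on the log2 scale, and 6.29 without P6 GFP+ replicate 2, given without a test.

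**Figure D3:**
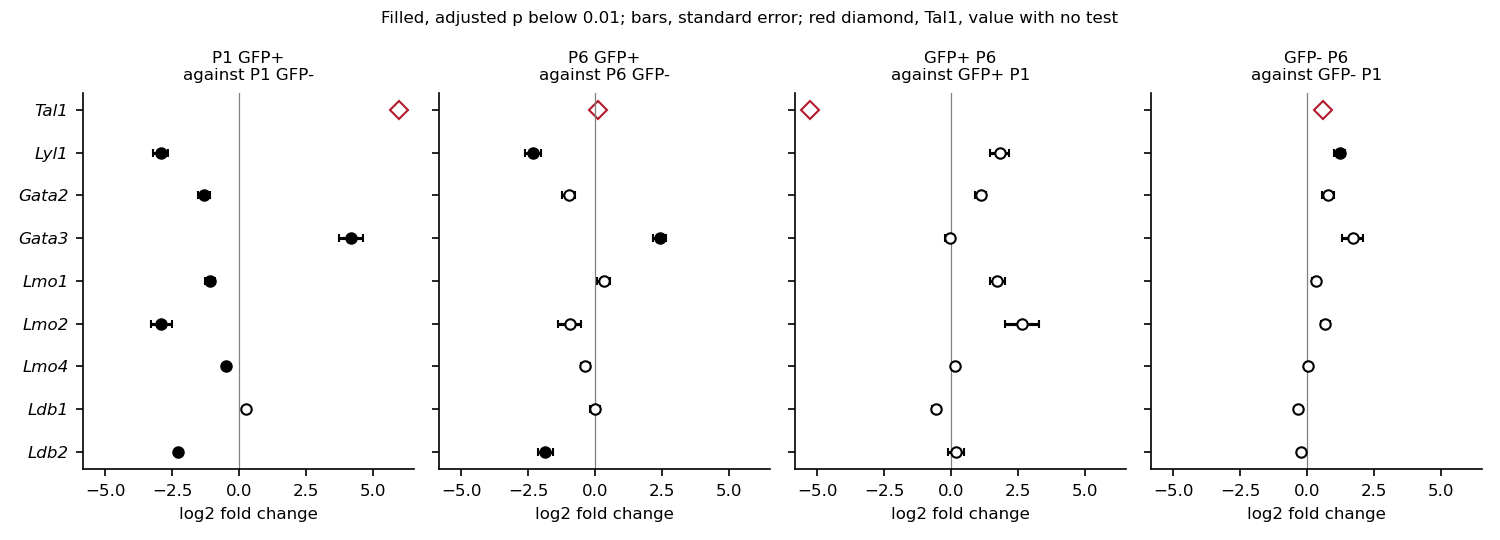
Log2 fold change of each member in 4 comparisons (GFP+ against GFP- at P1 and at P6, and P6 against P1 in GFP+ and in GFP- cells), with bars of 1 standard error. Filled symbols passed an adjusted p of 0.01 in edgeR, *Tal1* is drawn as a red diamond without a test, and *Gata1*, with 3 counts or fewer per library, is not drawn. *Tal1* (5.97) and *Gata3* (4.18) lie to the GFP+ side at P1, and *Lyl1*, *Lmo2* and *Ldb2* lie at -2.27 or lower.

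Per kilobase of exon, the order of the members in P1 GFP+ cells was *Gata3* at 186 CPM per kilobase, *Ldb1* at 93.8, *Tal1* at 23.2 ± 3.18, *Lmo4* at 19.9, *Gata2* at 8.07, *Lmo1* at 6.06, *Ldb2* at 4.11, *Lmo2* at 0.487, *Lyl1* at 0.350 and *Gata1* at 0.0124. Only *Lmo2* and *Lyl1* had overlapping replicates among neighbours in this order. *Tal1* thus ranked behind *Gata3* and *Ldb1* in P1 GFP+ cells and below all but *Gata1* in each of the other groups, where it lay at 0.372 (P1 GFP-), 0.590 (P6 GFP+) and 0.568 CPM per kilobase (P6 GFP-). In P6 GFP+ cells *Gata3* (180) and *Ldb1* (63.4) again came first, followed by *Lmo4* (22.4), *Lmo1* (20.0) and *Gata2* (17.3), whose replicates overlapped from one to the next. *Ldb2* (4.67) and *Lmo2* (3.15) also overlapped there, above *Lyl1* (1.23). In GFP- cells *Ldb1* came first, at 79.1 CPM per kilobase at P1 and 64.0 at P6. It was followed at P1 by *Lmo4* (28.1), then *Gata2* (20.2) and *Ldb2* (20.0), which overlapped, *Lmo1* (12.8) and *Gata3* (10.3), which overlapped, *Lmo2* (3.87) and *Lyl1* (2.68). At P6 it was followed by *Gata2* (35.1), *Gata3* (34.5) and *Lmo4* (29.4), which overlapped from one to the next, then *Ldb2* (17.5), *Lmo1* (16.2), and *Lyl1* (6.33) with *Lmo2* (6.32), which overlapped. *Ldb1* was 22.8-fold above *Ldb2* per kilobase in P1 GFP+ cells and 14.8-fold in P6 GFP+ cells (19.5 and 10.1 in replicates 1 and 2), against 3.96-fold and 3.66-fold in GFP- cells.

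**Figure D4:**
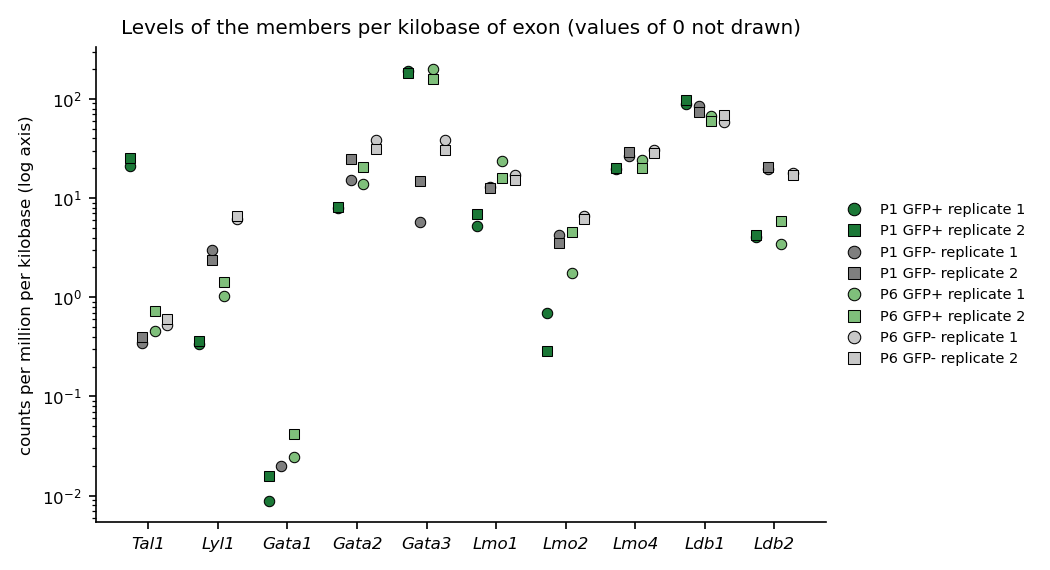
Levels of the 10 genes per kilobase of exon, in CPM per kilobase on a log axis, for the 4 groups, with 1 symbol per library. Values of 0 are not drawn. *Tal1* lies near *Lmo4* in P1 GFP+ cells (23.2 against 19.9) and below every other member but *Gata1* in the other groups.

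The genes most like *Gata3* over the 8 libraries were *Lpin3*, *Ninj2*, *Rassf9*, *Smtnl2* and *Mpzl2*, each with r of 0.99. Like *Gata3*, all 5 were higher in the 4 GFP+ libraries than in the 4 GFP- libraries. They were picked for likeness to *Gata3* over these same libraries, so this is a description and not a separate result. *Mpzl2*, which encodes an adhesion protein linked to hearing loss, had 272 and 258 CPM in P1 GFP+ cells and 26.3 and 43.6 CPM in P1 GFP- cells.

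The other genes of the complex were taken as lists. Of all genes, edgeR called 16.6% higher and 20.7% lower in GFP+ cells at P1, and 7.72% and 5.19% at P6. With age in GFP+ cells 38.2% had an unadjusted p under 0.05 and DESeq2 called 17.6%. In GFP- cells these shares were 34.5% and 16.1%, and in the interaction 21.2% and 7.48%. Counts within the lists are read against these shares. Among the 3 E proteins, the dimer partners of TAL1 and LYL1, *Tcf12* (-1.01, p-adj = 5.92e-04) and *Tcf4* (-0.85, p-adj = 0.00542) were lower in GFP+ cells at P1. None passed in edgeR at P6, where 1 had an unadjusted p under 0.05 and DESeq2 called 1, against 26.7% of all genes by DESeq2. The share of all genes at an unadjusted p under 0.05 was not taken there. With age none passed in GFP+ cells (1 and 0 by these counts) or GFP- cells (3 and 0), nor did any in the interaction (1 and 0). Their median was -0.85 at P1 and -0.28 at P6. Without P6 GFP+ replicate 2, the P6 difference of *Tcf12* was -1.501. Its change with age in GFP+ cells was -0.81 there, against -0.39 with both libraries. Of 7 close relatives of the members, 4 were tested at P1 and 3 at P6. The neuronal helix-loop-helix gene *Nhlh1* was higher in GFP+ cells at both ages, by 3.23 at P1 (p-adj = 5.53e-04) and 3.82 at P6 (p-adj = 0.00707, and 4.26 without P6 GFP+ replicate 2). *Gata6* was lower at P1 by a log2 difference of -4.58 (p-adj = 0.00162), and at P6 only without that library (-2.69, p-adj = 2.12e-04).

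Of 16 genes for proteins that bind LDB1, 11 were tested at P1 and 9 at P6. At both ages 3 were higher and 3 lower in GFP+ cells, against 16.6% and 20.7% of all genes at P1 and 7.72% and 5.19% at P6. With age edgeR called none in GFP+ cells (3 at an unadjusted p under 0.05 and 1 called by DESeq2) or GFP- cells (3 and 1). In the interaction it also called none (1 and 0). The higher genes encode LIM homeodomain factors. *Lhx3*, known in hair cells, was higher by 3.40 at P1 (p-adj = 1.74e-04) and 4.26 at P6 (p-adj = 0.00215), and *Isl2* by 2.62 at P1 (p-adj = 0.00240) and 2.69 at P6 (p-adj = 0.00170). *Isl1*, a factor of sensory progenitors, was higher by 2.01 at P1 and 2.14 at P6 (p-adj = 0.00152). The lower genes were the single-stranded DNA-binding proteins that stabilize LDB1. *Ssbp2* differed by -2.54 at P1 (p-adj = 3.25e-05) and -1.77 at P6, *Ssbp3* by -1.18 and -1.35, and *Ssbp4* by -1.15 and -1.05. Without P6 GFP+ replicate 2 the P6 differences were 4.28 for *Lhx3*, 2.90 for *Isl2* and 2.26 for *Isl1*. They were -2.22 for *Ssbp2*, -1.58 for *Ssbp3* and -1.06 for *Ssbp4*. In that fit *Lhx3*, *Isl2* and *Ssbp3* changed with age in GFP+ cells by -1.15, -0.42 and -0.84. With both libraries these changes were -1.18, -0.63 and -0.62. *Ssbp3*, *Ssbp4*, the P1 value of *Isl1* and genes called only without P6 GFP+ replicate 2 were named after their values were seen.

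Of 18 cofactors of the complex in blood cells, 17 were tested. At P1 8 were lower and 3 higher in GFP+ cells, against 20.7% and 16.6% of all genes, with a median of -0.39. The most changed were *Runx1* (-4.21, p-adj = 8.10e-04), a master factor of blood stem cells, *Zfpm2* (-3.97, p-adj = 7.75e-05), a GATA cofactor, and *Fli1* (-3.86, p-adj = 1.40e-05), an ETS factor of vessels and megakaryocytes. At P6 2 were higher and 1 lower. *Gfi1*, which is also a hair cell factor and stands among the hair cell markers, was higher by 4.08 (p-adj = 0.00134), *Zfpm1* by 0.88, and *Cbfb*, the partner of RUNX1, was lower by a log2 difference of -1.10 (p-adj = 0.00534). Without P6 GFP+ replicate 2 these 3 differences were 4.11, 0.90 and -1.08. With age edgeR called none in GFP+ cells, where 8 had an unadjusted p under 0.05 (38.2% of all genes) and DESeq2 called 1 (17.6%). *Fli1* rose by 0.95 in GFP- cells. Leaving out P6 GFP+ replicate 2, the P6 differences were -3.68 for *Runx1*, -4.14 for *Zfpm2* and -4.08 for *Fli1*. With both libraries they were -2.45, -2.83 and -2.83. *Crebbp* had 52.7 and 113 CPM in P6 GFP+ replicates 1 and 2. Its change with age in GFP+ cells was -0.65, and -1.30 without replicate 2.

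Of 7 genes known as targets of TAL1 in blood and leukaemia, 6 were tested. At P1 5 were lower in GFP+ cells, against 20.7% of all genes. They included *Aldh1a2* (-4.96, p-adj = 3.62e-05), which encodes a retinoic acid synthesis enzyme, *Myb* (-2.54, p-adj = 0.00265), a blood progenitor factor, and *Arid5b* (-2.31, p-adj = 9.01e-05). *Trib2*, a pseudokinase gene, was the only one called by edgeR at P6 (-1.17, and -1.32 without P6 GFP+ replicate 2). There, 5 of 6 had an unadjusted p under 0.05 and DESeq2 called 4, against 26.7% of all genes by DESeq2. Without that library 7 were tested at P6, with 5 lower and *Myb* higher. The GFP+ level of *Trib2* relative to GFP- cells was larger at P1 than at P6 by 1.27 (p-adj = 0.00832, and 1.42 without that library). *Aldh1a2* fell by 1.76 in GFP- cells from P1 to P6. *Myb* moved opposite to *Tal1* with age. It had 0.259 and 0.425 CPM in P1 GFP+ cells, 2.20 and 1.69 CPM in P1 GFP- cells, 10.3 and 6.36 CPM in P6 GFP+ cells, and 1.90 and 2.33 CPM in P6 GFP- cells. It rose by 4.63 in GFP+ cells (p-adj = 0.00490), and its P1 difference of the fractions minus its P6 difference was -4.52 (p-adj = 0.00351). These were 4.97 and -4.82 without P6 GFP+ replicate 2. With age in GFP+ cells, *Trib2*, *Arid5b*, *Kit* and *Cdk6* changed by -1.05, -0.37, -0.22 and -0.72, and none passed. Without that library these values were -1.19, -1.83, -0.63 and -2.22. *Arid5b* had 4.21 and 18.5 CPM in P6 GFP+ replicates 1 and 2, against 16.3 and 13.4 CPM in P1 GFP+ cells.

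*Lyl1*, *Lmo2*, *Gata2* and *Ldb2*, which were low in P1 GFP+ cells, are expressed in vessel or blood cells, so the markers of those cells were set beside them. The summed level of 11 endothelial markers was 57.1 and 49.998 CPM in P1 GFP+ cells, 538 and 452 CPM in P1 GFP- cells, 153 and 460.3 CPM in P6 GFP+ cells, and 679 and 655 CPM in P6 GFP- cells. In P1 GFP+ cells 10 of 11 were lower than in P1 GFP- cells, against 20.7% of all genes. None of the 11 was at 0 in both libraries of any group. At P6 edgeR called none of 11, with 3 at an unadjusted p under 0.05 and 2 called by DESeq2, against 26.7% of all genes by DESeq2. The median log2 difference of the 11 at P6 was 0.25, and -0.97 without P6 GFP+ replicate 2. The P6 sums rest heavily on *Emcn* (15.4 and 53.6 CPM in GFP+ cells, 226 and 223 CPM in GFP- cells) and *Eng* (24.9 and 69.9 CPM, 239 and 241 CPM), so they do not stand for each marker. From P1 to P6 in GFP+ cells edgeR called none of 11. All 11 had an unadjusted p under 0.05 (38.2% of all genes) and DESeq2 called all 11 (17.6%), with a median log2 change of 2.74. Without P6 GFP+ replicate 2, 6 of 11 were lower at P6, and all 11 rose with age in GFP+ cells, with a median of 1.72. *Lyl1*, *Lmo2* and *Gata2* were lowest in the P1 GFP+ libraries, where this sum was lowest, whereas *Ldb2* was lowest in P6 GFP+ replicate 1. All 4 genes were higher in P6 GFP+ replicate 2 than in replicate 1, as the sum was, but so was *Tal1* (3.18 and 1.98 CPM). P6 GFP+ replicate 2 and P1 GFP- replicate 2 had similar sums (460.3 and 452 CPM). In these 2 libraries *Ldb2* had 15.5 and 54.0 CPM and *Lyl1* 2.56 and 4.24 CPM. *Lmo2* had 9.82 and 7.59 CPM there, and *Gata2* 69.7 and 84.0 CPM. The part of these markers in the results of the 4 members was not tested.

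Summed markers of blood cells were also taken. The sum over 10 erythroid markers was 7.66 and 14.2 CPM in P1 GFP+ cells, 262 and 240.2 CPM in P1 GFP- cells, 28.4 and 88.3 CPM in P6 GFP+ cells, and 259 and 621 CPM in P6 GFP- cells. In GFP- cells it rests mostly on *Hbb-b1* and *Hba-a1*, so it does not stand for each marker. *Klf1* went the other way, with 0.669 and 1.08 CPM in P1 GFP+ cells and 0.401 to 0.580 CPM elsewhere. Between the P6 fractions edgeR called none of 8 erythroid markers tested, 6 had an unadjusted p under 0.05 and DESeq2 called 3. The sum over 8 macrophage and leucocyte markers was 16.01 to 19.4 CPM in P1 GFP+ cells, 137 to 184 CPM in P1 GFP- cells, 50.3 to 79.9 CPM in P6 GFP+ cells and 383 to 447 CPM in P6 GFP- cells. The 10 mast cell and megakaryocyte markers summed to 2.44 to 2.72 CPM in P1 GFP+ cells, 15.2 to 27.8 CPM in P1 GFP- cells, 5.23 to 8.24 CPM in P6 GFP+ cells and 17.7 to 21.3 CPM in P6 GFP- cells. In P1 GFP+ cells 6 of these 10 had no counts (*Cma1*, *Fcer1a*, *Mcpt4*, *Ms4a2*, *Ppbp* and *Tpsb2*), against 2 in P1 GFP- cells, 3 in P6 GFP+ cells and 2 in P6 GFP- cells, and *Fcer1a* and *Ms4a2* had none in all 8 libraries. The P1 GFP+ libraries, in which *Tal1* was 91.8 and 112 CPM, thus had the lowest sums of all 4 lists. The P1 GFP+ libraries also had the lowest sums of neuron (41.9 CPM in both), Schwann cell (362 and 319 CPM) and melanocyte markers (4.68 and 6.73 CPM). Most of that Schwann cell sum was *Sox10* (272 and 275 CPM), which had 87.8 and 136 CPM in P1 GFP- cells. It was higher in GFP+ cells at P1 while the other 3 were lower, so the sum does not stand for each marker. The mesenchyme and cartilage sum was not lowest there (5120 and 6307 CPM). P6 GFP+ replicate 2 was above replicate 1 in the Schwann cell sum (1944 and 970 CPM), the melanocyte sum (98.6 and 42.7 CPM) and the mesenchyme and cartilage sum (8291 and 5035 CPM).

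**Figure D5:**
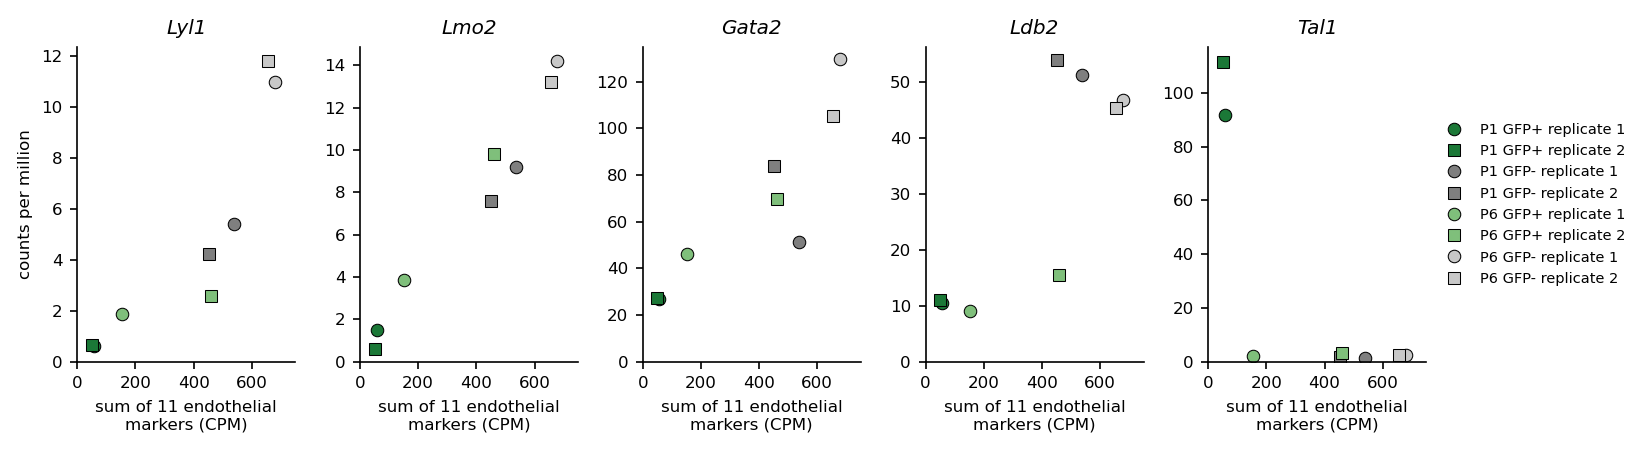
Levels of *Lyl1*, *Lmo2*, *Gata2*, *Ldb2* and *Tal1* in CPM against the summed level of 11 endothelial markers in CPM, with 1 symbol per library. The P1 GFP+ libraries lie at 57.1 CPM or less on the horizontal axis, with *Tal1* at its highest and *Lyl1* and *Lmo2* at their lowest. On that axis P6 GFP+ replicate 2 (460.3 CPM) lies beside the P1 GFP- libraries, but its *Ldb2* level is far below theirs (15.5 against 51.3 and 54.0 CPM).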

How the data were processed

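RNA-seq was performed by the authors on GFP+ and GFP- cells sorted from P1 and P6 cochleas, with 2 libraries in each of 4 groups. The authors deposited 1 unnormalized count for each Ensembl gene, made by aligning paired reads to the mm9 mouse genome with TopHat (1.4.0 in the submitters' processing notes) and counting with HTSeq. The counting mode is not given in the sources used here. Reads on no gene (13.8% to 25.6% of those listed for a library), on several genes (2.05% to 2.53%) or aligned at several places (7.41% to 9.60%) were left out, so genes with close copies may be undercounted.

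Symbols, positions and exon lengths were read from the annotation of NCBIM37, with entries for 34391 of 36536 genes. Each comparison was fitted on its 4 libraries, and the interaction of age and fraction on all 8, with edgeR 4.0.16 in R 4.3.3 (filterByExpr with minimum count 10 and minimum total count 15, TMM scaling, quasi-likelihood test, Benjamini-Hochberg adjustment over all genes tested). A gene was called at an adjusted p below 0.01, and a fold change above 4 was counted as well. Standard errors are the absolute log2 fold change over the square root of F. Likeness was Pearson's r on log2 CPM with a prior count of 2, over genes with a mean of at least 10 CPM in some group. Named genes were the members, the 5 genes most like *Tal1* and *Gata3*, 3 neighbours on each side of *Tal1* and up to 3 called genes per list. The members and lists were chosen with earlier results of these data known. Promoter windows were read with Python 3.11.15 and figures drawn with matplotlib 3.10.9. Replicates differed by more than sampling noise in each group (chi-square per degree of freedom 16.3 to 62.7).

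Simulated data gave all genes the same relative spread, and 50 genes were changed at each fold. On them the procedure recovered 68% of genes changed 2-fold and 98% of those changed 4-fold in the P1 comparison, and 22% and 82% in the P6 comparison. Alternatives were DESeq2 1.42.0, DESeq2 size factors, library totals, no filter, all 8 libraries in 1 fit, a replicate block and leaving out each library. A crossed replicate block was chosen after seeing the data.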

Additional observations from a re-analysis of the deposited data

Results flagged for a closer look

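*Pdzk1ip1*, the gene downstream of *Tal1*, had a ratio of GFP+ to GFP- cells that differed between the ages by the interaction test, being larger at P1 than at P6 by 2.89 on the log2 scale (p-adj = 0.0060, edgeR). It was higher in GFP+ cells in both libraries of each age. The difference ranged from 2.63 to 3.17 when each library was left out in turn, with adjusted p from 9.17e-04 to 0.0493, and it missed the threshold of 0.01 in 6 of these 8 fits and with a replicate block (p-adj = 0.0178).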

How the results depend on the processing

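Of 486 alternative values of the members' log2 fold changes, 401 kept their direction and their side of the threshold (for *Tal1*, which was not tested, stayed within the replicate spread), 48 newly passed it, 19 no longer passed it, 13 changed direction and 5 values of *Tal1* moved beyond the replicate spread. Where a group was left with 1 library, that library was assumed to vary like the other groups. At P6, GFP+ against GFP- cells, *Tal1* ranged from -0.31 (without P6 GFP+ replicate 2) to 0.44 when 1 library was left out. *Ldb1* was -0.034 with no filter and -0.013 with all 8 libraries in the fit, and ranged from -0.074 (without P6 GFP- replicate 1) to 0.16, being also below 0 without P6 GFP+ replicate 1 (-0.018). From P1 to P6 in GFP+ cells, *Gata3* ranged from -0.24 to 0.12 and *Ldb2* from -0.25 to 0.52, with the sign turned without P6 GFP+ replicate 2. In GFP- cells *Lmo4* was -0.16 with library totals and ranged from -0.040 (without P1 GFP- replicate 1) to 0.10, being also below 0 without P6 GFP- replicate 1 (-0.016). In the interaction, *Lmo4* ranged from -0.22 to 0.044 (without P6 GFP+ replicate 1), *Gata2* from -0.65 to 0.027 and *Ldb2* from -0.71 to 0.064 (both without P6 GFP+ replicate 2), and *Stil* from -0.66 to 0.85 (above 0 without P1 GFP- replicate 1, at 0.12, and without P6 GFP+ replicate 2).

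The number of members called, leaving out 1 library at a time, ranged from 4 to 8 at P1, from 0 to 6 at P6, from 0 to 6 with age in GFP+ cells, from 0 to 3 with age in GFP- cells and from 0 to 1 in the interaction. At P1, *Lmo1*, *Lmo4* and *Gata2* were lost without either GFP+ library (adjusted p 0.0129 to 0.0597), and *Lmo4* with all 8 libraries in the fit (0.0154). At P6, *Lyl1*, *Gata3* and *Ldb2* were lost without either GFP- library (0.0152 to 0.0433), and *Ldb2* with library totals (0.0110). With age in GFP+ cells, DESeq2 called 4 members, no filter gave 5 and all 8 libraries in the fit gave 3, against 0. In GFP- cells, the call of *Lyl1* was lost with library totals (0 members called, adjusted p 0.0204), all 8 libraries (0, 0.0151) and without either P6 GFP- library (0.0667 and 0.0706), while DESeq2 called 3 and no filter 4. In the interaction DESeq2 called 1 and no filter 3. The cause was not tested.

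Over all genes, the calls were 6972 at P1 (3675 to 9798 without 1 library), 2363 at P6 (4891 by DESeq2, 5309 with no filter, 5157 with all 8 libraries, 0 to 7767 without 1 library), 828 with age in GFP+ cells (3037, 4090, 2361, 137 to 7531), 1397 in GFP- cells (3050, 3993, 769, 249 to 3029) and 372 in the interaction (1439 by DESeq2, 2400 with no filter, 28 to 1407). Library totals moved the median of all genes by -0.10 at P1, -0.19 with age in GFP- cells and -0.12 in the interaction, and changed the share of calls that were higher from 59.8% to 71.4% at P6, from 68.3% to 49.5% in GFP- cells and from 51.1% to 39.8% in the interaction.

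Same-numbered libraries deviated together little or in opposite directions (correlations of 0.02, 0.09, -0.08 and -0.28 over the 4 comparisons), so the numbers were not taken as pairs. With a replicate block, 0 members were called with age in GFP- cells, where *Lyl1* had an adjusted p of 0.0212, and 151 genes were called in the interaction. A crossed replicate block, chosen after seeing the data, gave 3 members and 3063 genes called with age in GFP- cells. With 2 libraries a group, the self-test recovered 24% of genes changed 2-fold with age in GFP+ cells, so changes of that size were often not detectable at the simulated spread. That spread was the same for all genes, so the share does not say how often such a change would be found for a given member.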
